A study of Rattus norvegicus with 6 samples.

Results

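The genes described here encode the proteins that move calcium across the membranes of the rat aorta: voltage-gated calcium channels and their subunits, TRP channels, the store-operated Orai and Stim proteins, ryanodine and inositol trisphosphate receptors, the calcium pumps and the sodium-calcium exchangers. All rows of the deposited table were taken whose symbol begins with Cacna, Cacnb, Cacng, Trpc, Trpv, Orai or Slc8a, or is Trpm, Ryr, Stim, Itpr, Atp2a, Atp2b or Atp2c with a single digit. This gave 72 of 24005 gene symbols. By symbol alone the rule also took Trpc4ap, whose product binds a TRPC channel, and Trpc5os, a gene named as the opposite strand of Trpc5. The Cacng genes were likewise counted as voltage-gated channel subunits by symbol.

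The study sequenced RNA from aorta in 2 groups of 3 libraries. Rats of the exosome group received 10 mg/kg of the exosome preparation named ANCR/E7-EXO into the tail vein, with 5 days between injections. Rats of the saline group received an equal volume of saline for 13 weeks. Both groups carried chronic kidney disease, made by a 5/6 nephrectomy done in 2 steps, and both were fed a diet with 1.2% phosphorus. No healthy or untreated rats were part of the comparison, and the labels give neither strain, age and sex nor whether each library came from a separate rat. Values are FPKM, which correct reads for gene length and depth.

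In the smooth muscle of the vessel wall, calcium enters from outside through L-type voltage-gated channels and through channels opened by receptors, stretch or emptied stores. It is also released from the sarcoplasmic reticulum through inositol trisphosphate and ryanodine receptors. Bound to calmodulin it activates myosin light chain kinase, which drives contraction, and pumps and exchangers then return it to the store or move it out of the cell. The same ions, with phosphate, make up the mineral of a calcified vessel.

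The libraries stood for 28063355 to 44561082 reads each, and the implied reads are given for some of the members with few. All 7 smooth muscle markers were present, and their summed level lay between 14938 and 21020.5 FPKM in the exosome libraries and between 13489 and 21235 FPKM in the saline libraries. Of these Myocd, a transcriptional coactivator of smooth muscle genes, had an unadjusted p of 0.000802 in limma (adjusted p = 0.237), at 38.6, 30.9 and 30.04 FPKM in exosome 1, 2 and 3, against 15.2, 14.3 and 21.4 FPKM in saline 1, 2 and 3. The log2 difference was above 0 for 4 of the 7 and below 0 for Myh11 (-0.10), Smtn (-0.25) and Lmod1 (-0.093). Groups overlapped for all of the 7 except Myocd. The 7 endothelial markers summed to 123 to 195 FPKM in the exosome libraries and 75.6 to 109 FPKM in the saline libraries, without overlap. Of the 7, 4 had an unadjusted p under 0.05 in limma, all higher. Cdh5 and Tek were above 0 and Kdr below 0 (log2 difference -0.29), each with overlapping groups. The 7 macrophage markers summed to 109 to 133 FPKM with exosomes and 77.9 to 88.8 FPKM with saline, also without overlap, and 4 of these had an unadjusted p under 0.05. Of the skeletal muscle markers Myh4 was listed at 0, and the sum of the 10 was 55.5 to 71.6 FPKM with exosomes and 56.2 to 77.9 FPKM with saline. Markers of heart muscle summed to 57.5 FPKM in exosome 3 and 30.1 FPKM in saline 1, against 1.23 to 6.07 FPKM in the other 4 libraries. In saline 1 Actc1 alone gave 29.1 FPKM of the sum, with Tnnt2 at 0.124 FPKM and Tnni3 at 0. In exosome 3 Actc1 stood at 33.0, Tnnt2 at 8.58 and Tnni3 at 4.05 FPKM. The 6 adipocyte markers summed to 356 to 627 FPKM with exosomes and 318 to 1099 FPKM with saline, the highest in saline 2. In bulk tissue, fewer cells of a type and less RNA per cell cannot be told apart.

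Of the 72 members, 37 had a mean of at least 1 FPKM over the 6 libraries and were tested, 30 were above 0 but below that level, and 5 were listed at 0 in every library. No tested member passed the threshold, an adjusted p under 0.05 in limma over all 11742 genes tested (0.00852% of them, 1 gene, Zbtb16, passed, and was higher). The smallest adjusted p of a member was 0.247. At an unadjusted p under 0.05 limma gave 2 higher members (Atp2b1 and Atp2c1) and 1 lower member (Cacna1c), against 16.0% of all genes tested in either direction, 6.75% higher and 9.24% lower. On the recovered reads voom gave 3 higher and 1 lower member at that level, against 2013 of the 11742 genes, and 0 members past the adjusted threshold. The groups did not overlap for 3 higher members, with Trpv4 as the additional one, and for 2 lower members, Atp2b4 and Cacna1c. These 5 made up 13.5% of the tested members, against 21.1% of all genes, of which 9.4% were higher and 11.7% lower. That share was below the one of all genes, and it counts Trpv4, whose mean passed the filter only through the exosome group. The median log2 difference was 0.024 over the tested members, with 19 above 0 (51.4%, against 39.3% of all genes) and 18 below, and it was -0.073 over all genes.

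**Figure D1:**
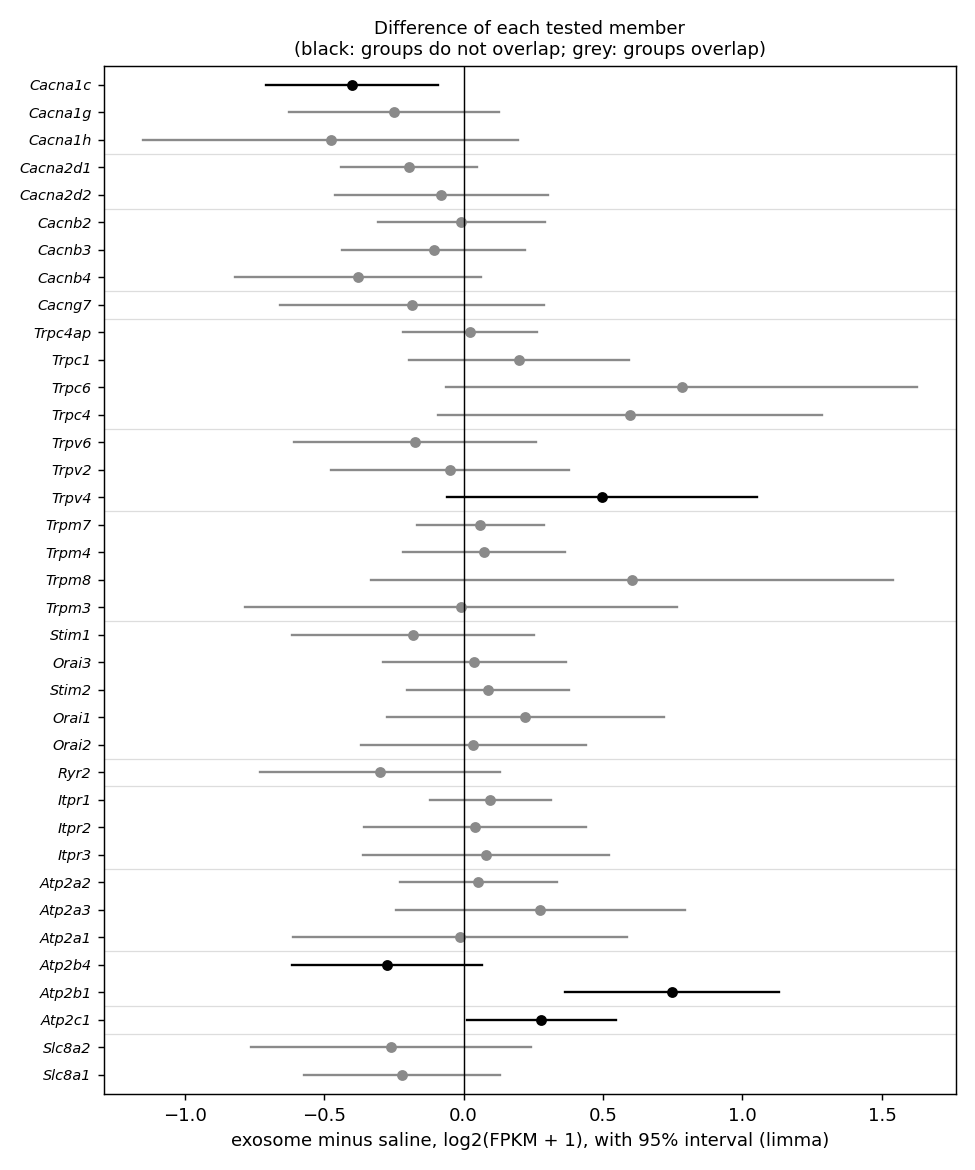
Difference between exosome and saline libraries on the log2(FPKM + 1) scale for the 37 tested members, grouped by role, with the 95% interval from limma (points and lines). The intervals of Cacna1c, Atp2b1 and Atp2c1 lie to one side of 0, and no member passed the adjusted threshold.

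Levels per length placed the store and plasma membrane pumps at the top. Atp2a2, which encodes the main calcium pump of the smooth muscle sarcoplasmic reticulum, lay between 139 and 170.5 FPKM over the 6 libraries. Atp2b4, a plasma membrane calcium pump, lay between 76.7 and 123 FPKM. Both were set apart from the next gene, Itpr1, an inositol trisphosphate receptor at 59.1 to 67.8 FPKM, and that in turn from Cacna2d1 at 45.8 to 57.7 FPKM. Stim1, at 29.9 to 50.3 FPKM, overlapped both Cacna2d1 above it and Trpc4ap, at 29.96 to 35.5 FPKM, below it. Slc8a2, next in the order at 15.2 to 29.4 FPKM, lay below every value of Trpc4ap and overlapped Trpm7, at 20.4 to 23.5 FPKM. In all, 18 members averaged at least 10 FPKM.

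**Figure D2:**
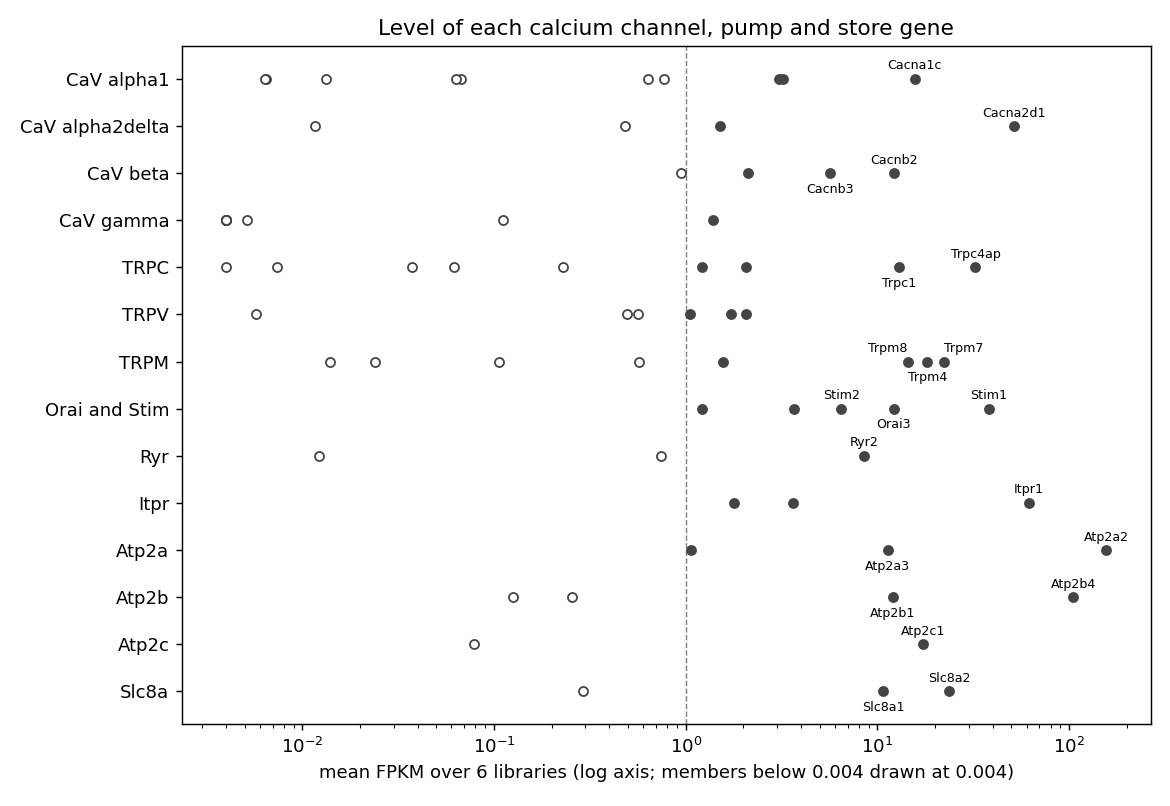
Mean FPKM over the 6 libraries of each of the 72 members, on a log axis, by role. Filled points are the 37 tested members, open points those below a mean of 1 FPKM (dashed line), and members at 5 FPKM or more are named.

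Several isoforms known from other excitable tissues were near 0. Cacna1s, the channel subunit of skeletal muscle, held 0 to 7 reads per library, Ryr1, the release channel of skeletal muscle, 2 to 9 reads, and Cacna1b, the neuronal N-type channel, 0 to 8 reads. Cacng1, the gamma subunit of the skeletal muscle channel, was one of the 5 gamma genes listed at 0, with Cacng2, Cacng5, Cacng6 and Cacng8. Atp2a1, the pump of fast skeletal muscle, was above these, at 0.919, 1.75 and 0.540 FPKM in exosome 1, 2 and 3, against 1.53, 0.850 and 0.784 FPKM in saline 1, 2 and 3. It held 83 to 177 reads per library and overlaps Rabep2 in the RefSeq gene table.

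Among the pore-forming voltage-gated subunits, Cacna1c, the L-type channel through which arterial muscle takes up calcium on depolarisation, was the member with the most separate lower values. It stood at 15.5, 12.8 and 11.8 FPKM in exosome 1, 2 and 3, against 18.4, 16.2 and 18.9 FPKM in saline 1, 2 and 3. All 3 exosome libraries lay below all 3 saline libraries. The means were 13.4 ± 1.95 FPKM with exosomes and 17.9 ± 1.44 FPKM with saline (SD, n = 3 each), and the log2 difference was -0.40 with a standard error of 0.13. Its unadjusted p in limma was 0.0179 and its adjusted p was 0.277. The difference lay between -0.51 and -0.32 when single libraries were left out, and was -0.45 with exosome 1 and 3 both left out. Between 4770 and 8557 reads lay behind each value, so counting error is small beside the spread between libraries. In the RefSeq gene table Cacna1c overlaps Dcp1b, and reads of the overlap may not be separable.

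The T-type channel genes Cacna1g and Cacna1h, which open at lower voltages, had values below those of Cacna1c and overlapping groups. Cacna1g ranged from 2.15 to 3.36 FPKM with exosomes and from 3.35 to 3.67 FPKM with saline. Cacna1h ranged from 1.23 to 3.76 FPKM with exosomes and from 2.69 to 4.24 FPKM with saline. Their adjusted p in limma were 0.446 and 0.423. Cacna1h overlaps Tpsg1 in the RefSeq gene table. The other 7 alpha1 genes were below the filter, the highest being Cacna1a, a P/Q-type channel, and Cacna1d, an L-type channel, at averages of 0.768 and 0.639 FPKM. As Cacna1c took 65.5% to 68.7% of the summed alpha1 FPKM in the exosome libraries and 62.5% to 71.0% in the saline libraries, its share within the family overlapped while its level did not.

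The auxiliary subunits set how many channels reach the membrane and how they gate. Cacna2d1, an alpha2delta subunit and the drug target of gabapentin, stood at 49.8, 47.5 and 45.8 FPKM in exosome 1, 2 and 3, against 57.7, 57.7 and 49.2 FPKM in saline 1, 2 and 3. Exosome 1 lay above saline 3, so the groups overlapped, with a log2 difference of -0.20 ± 0.10 (SE) and an adjusted p of 0.378. Cacnb2, the most abundant beta subunit, stood at 13.8, 11.1 and 11.5 FPKM with exosomes and 11.8, 13.5 and 11.3 FPKM with saline. Its difference of -0.0076 had a 95% interval from -0.31 to 0.29. Cacnb4 was within 1.63 to 1.71 FPKM in the 3 exosome libraries, against 1.71, 2.75 and 3.16 FPKM in saline 1, 2 and 3, where only saline 1 reached the exosome values (adjusted p = 0.354). Cacng7, the one gamma gene above the filter, stood at 1.52, 1.14 and 1.02 FPKM with exosomes and 1.21, 1.25 and 2.23 FPKM with saline, from 46 to 109 reads per library.

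All 9 tested voltage-gated subunits, Cacng7 counted among them by its symbol, had a log2 difference below 0. Of all genes tested 60.7% did, and none of the 9 passed the threshold. Smaller families had uniform signs too. Both tested Slc8a genes were below 0. All 4 tested TRPC members, of which Trpc4 passed the filter only through the exosome group, and all 3 Itpr genes were above 0. The sign of Cacnb2 turned under rescaling to equal sums, to the median of ratios and under quantile normalization, and that of Cacna2d2 under quantile normalization, which left 8, 8 and 7 of the 9 below 0. With library weights, or without exosome 2, exosome 3 or saline 2, Cacnb2 turned as well and 8 were below 0. With exosome 1 and 3 both left out, Cacna2d2 and Cacnb3 turned and 7 were below 0. The summed FPKM of all 26 voltage-gated genes was 98.2, 89.8 and 85.9 in exosome 1, 2 and 3, against 108, 109.9 and 103 in saline 1, 2 and 3. The groups of these sums, on FPKM that were not rescaled, did not overlap. Over all 72 members the sums were 703, 704 and 640 FPKM in exosome 1, 2 and 3, which overlapped 650, 712 and 716 FPKM in saline 1, 2 and 3. Cacna2d1 made up about as much of the voltage-gated sum as all the other voltage-gated genes together.

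**Figure D3:**
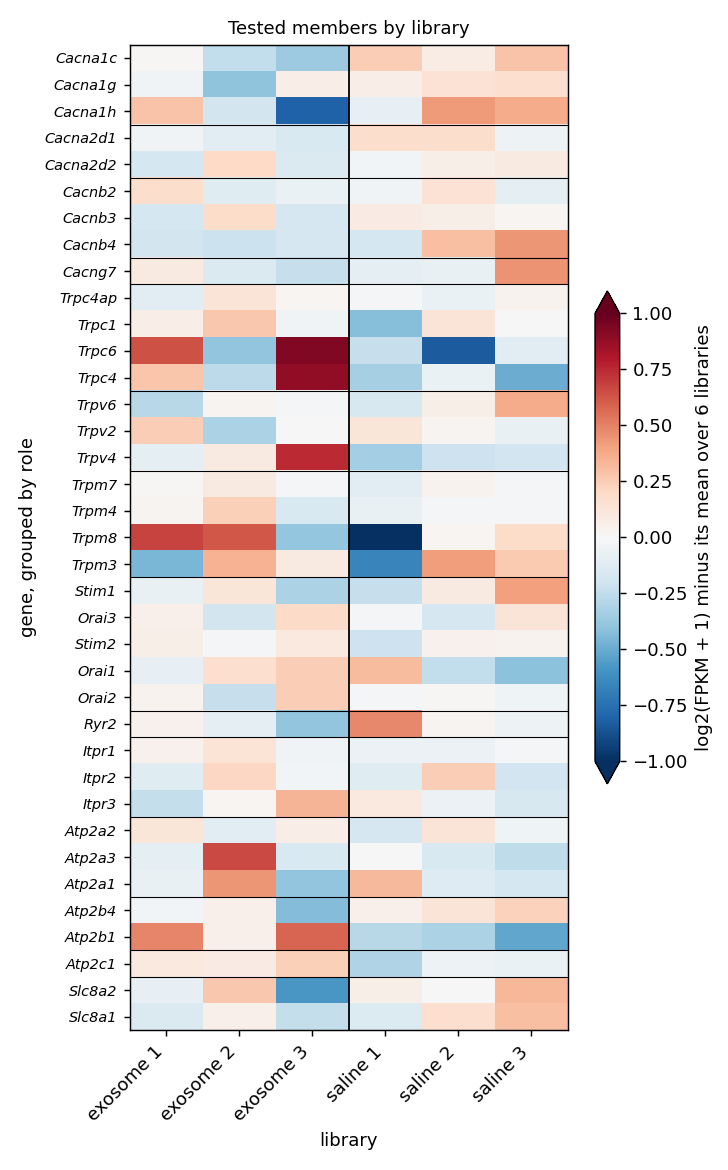
Deviation of log2(FPKM + 1) from its mean over the 6 libraries for the 37 tested members (rows, grouped by role), exosome libraries left of the line and saline libraries right of it. Trpc6 and Trpc4 were highest in exosome 3 and exosome 1, and Trpm8 was lowest in saline 1.

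Receptor- and stretch-activated entry runs through TRP channels. Trpc1, a widely expressed subunit, was the most abundant TRPC channel, at 12.5 to 15.7 FPKM with exosomes and 9.31 to 14.2 FPKM with saline. Trpc4ap, the binding protein, stood at 29.96, 35.5 and 32.8 FPKM in exosome 1, 2 and 3, against 32.2, 30.9 and 33.3 FPKM in saline 1, 2 and 3, a difference of 0.024 with an interval from -0.22 to 0.26. Trpc4ap overlaps Myh7b in the RefSeq gene table. Trpc6, which encodes a channel opened by diacylglycerol, stood at 3.37, 1.14 and 4.34 FPKM in exosome 1, 2 and 3, against 1.39, 0.580 and 1.601 FPKM in saline 1, 2 and 3. Exosome 1 and 3 lay above every saline library, and exosome 2 lay among them. The log2 difference of Trpc6 was 0.78 ± 0.36 (SE, adjusted p = 0.334). Trpc4, a related channel of endothelium and smooth muscle, had the same order among exosome libraries, at 1.53, 0.743 and 2.85 FPKM in exosome 1, 2 and 3, against 0.660, 0.996 and 0.481 FPKM in saline 1, 2 and 3 (adjusted p = 0.353), and its mean passed the filter only through the exosome group. Exosome 1 and 3 were also the libraries with the most Hsph1, a heat shock gene, which stood at 218, 41.9 and 512 FPKM in exosome 1, 2 and 3, against 38.4, 35.5 and 83.5 FPKM in saline 1, 2 and 3. The part of that in the TRPC values was not tested. Trpc6 held 48 to 540 reads per library and Trpc4 held 62 to 482. Trpc7, Trpc5, Trpc2 and Trpc5os were among the members below the filter.

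Trpv4, an osmotically and mechanically gated channel known in endothelium and smooth muscle, stood at 0.857, 1.10 and 2.32 FPKM in exosome 1, 2 and 3, against 0.563, 0.711 and 0.729 FPKM in saline 1, 2 and 3. The groups did not overlap, and exosome 3 stood apart. Between 61 and 334 reads per library lay behind these values. Its mean passed the filter only through the exosome group. Its log2 difference of 0.50 ± 0.24 (SE) had an adjusted p of 0.343, and it was 0.25 without exosome 3 and 0.88 with a pseudocount of 0.1. The sum of the endothelial markers was also higher with exosomes, at 123, 195 and 125 FPKM in exosome 1, 2 and 3. Exosome 2, not exosome 3, was highest for the sum of these markers. Their part in the Trpv4 values was not tested. Trpv6, an epithelial calcium channel and the highest TRPV gene by its mean, stood at 1.51, 2.09 and 2.01 FPKM with exosomes and 1.71, 2.15 and 2.92 FPKM with saline, which overlapped. The share of Trpv4 in the summed TRPV FPKM was 16.5%, 20.7% and 33.6% in exosome 1, 2 and 3, against 10.7%, 12.2% and 10.6% in saline 1, 2 and 3.

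In the TRPM family, Trpm7, a magnesium- and calcium-permeable channel joined to a kinase, was among the steadiest members. It stood at 22.3, 23.5 and 21.9 FPKM in exosome 1, 2 and 3, against 20.4, 22.6 and 21.9 FPKM in saline 1, 2 and 3. Its difference of 0.060 had an interval from -0.17 to 0.29. Trpm4, a calcium-activated cation channel that depolarises arterial muscle, ranged from 16.2 to 21.6 FPKM with exosomes and from 17.2 to 17.97 FPKM with saline. Trpm8, the cold and menthol receptor, had the widest spread within groups of all tested members on the log2(FPKM + 1) scale, with 21.6, 20.8 and 9.83 FPKM in exosome 1, 2 and 3, against 5.59, 13.3 and 15.05 FPKM in saline 1, 2 and 3. That spread was 0.65, on a scale that shrinks the spread of low genes such as Trpc6 and Trpc4, and exosome 3 lay below saline 2 and 3 (adjusted p = 0.455). In the RefSeq gene table Trpm8 overlaps Hjurp, so its reads may not be separable from those of that gene.

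Store-operated entry joins Stim proteins, which sense calcium in the store, to Orai channels of the plasma membrane. Stim1 stood at 35.6, 40.8 and 29.9 FPKM in exosome 1, 2 and 3, against 31.8, 40.01 and 50.3 FPKM in saline 1, 2 and 3. Saline 3 was highest and exosome 3 lowest, with the other values between them, and the difference of -0.18 had an interval from -0.62 to 0.25. Among the channels Orai3 was the most abundant, at 10.5 to 13.9 FPKM with exosomes and 10.6 to 13.3 FPKM with saline. Orai1, the classical store-operated channel, lay at 3.36 to 4.48 FPKM with exosomes and 2.48 to 4.76 FPKM with saline, from 97 to 230 reads per library. All 5 Orai and Stim genes were tested, and the smallest adjusted p among them was 0.599.

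Release from the store was represented mainly by Itpr1. It stood at 63.7, 67.8 and 60.2 FPKM in exosome 1, 2 and 3, against 59.1, 59.1 and 60.9 FPKM in saline 1, 2 and 3. Its groups overlapped at exosome 3, and its difference of 0.096 had an interval from -0.12 to 0.31. It made up 90.9% to 93.3% of the summed Itpr FPKM in the exosome libraries and 90.6% to 93.1% in the saline libraries. Ryr2, the ryanodine receptor of heart and smooth muscle that gives rise to calcium sparks, stood at 8.68, 7.77 and 6.17 FPKM in exosome 1, 2 and 3, against 12.1, 8.56 and 8.07 FPKM in saline 1, 2 and 3. Exosome 1 reached above saline 2 and 3, and the adjusted p was 0.429. Of the libraries with high heart muscle marker sums, exosome 3 (57.5 FPKM) was the lowest for Ryr2 and saline 1 (30.1 FPKM, of which Actc1 gave 29.1 FPKM) the highest. The part of heart muscle RNA in these values was not tested. Ryr3 lay below the filter at an average of 0.740 FPKM.

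Among the pumps that clear calcium was the member with the smallest p. Atp2b1, the plasma membrane calcium pump found in most cells, stood at 16.5, 11.9 and 17.7 FPKM in exosome 1, 2 and 3, against 9.25, 8.98 and 7.67 FPKM in saline 1, 2 and 3. Every exosome library lay above every saline library, with exosome 2 nearest to them. The means were 15.3 ± 3.04 FPKM with exosomes and 8.63 ± 0.846 FPKM with saline (SD, n = 3 each), a ratio of 1.78. Its log2 difference of 0.75 ± 0.16 (SE) had an unadjusted p of 0.00221 and an adjusted p of 0.247 in limma, the smallest of the members. It passed with library weights, at an adjusted p of 0.0422, where exosome 1 counted most. Over all settings other than leaving out exosome 1 and 3 together, its adjusted p lay between 0.0422 and 0.589. With exosome 1 and 3 both left out its log2 difference was 0.42, the lowest of all settings. Exosome 1 and 3, its highest libraries, were those high in Hsph1 as well, and the part of that in its values was not tested.

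Atp2b4, the more abundant plasma membrane pump of the aorta, had lower values with exosomes. It stood at 102, 107.6 and 76.7 FPKM in exosome 1, 2 and 3, against 108.1, 114 and 123 FPKM in saline 1, 2 and 3. The groups did not overlap, although exosome 2 and saline 1 were within 1 FPKM of each other. Its log2 difference of -0.27 ± 0.15 (SE) had an adjusted p of 0.375. That difference was -0.13 when exosome 3 was left out and -0.090 when exosome 2 stood alone. Within each library Atp2b1 made up 13.8%, 9.92% and 18.6% of the plasma membrane pump FPKM in exosome 1, 2 and 3, against 7.87%, 7.30% and 5.86% in saline 1, 2 and 3. Such a share does not depend on how libraries are scaled to each other. Summed over the 4 genes, plasma membrane pump FPKM was 119, 119.9 and 94.8 in exosome 1, 2 and 3, against 118, 123 and 131 in saline 1, 2 and 3, which overlapped.

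**Figure D4:**
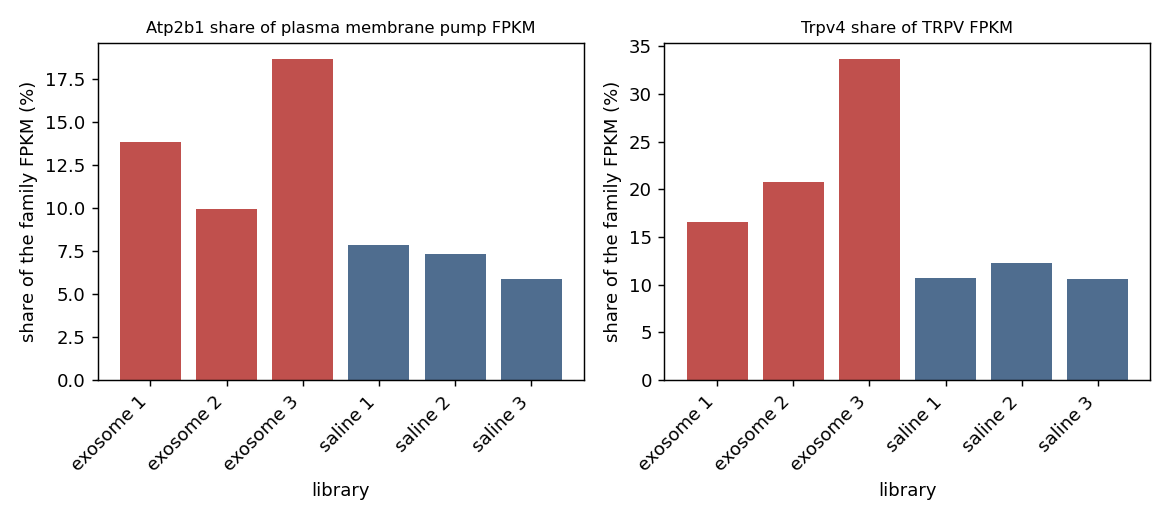
Share of Atp2b1 in the summed FPKM of the 4 plasma membrane pump genes (left) and of Trpv4 in the summed FPKM of the 6 TRPV genes (right), 1 bar per library. In both panels the 3 exosome bars stand above the 3 saline bars.

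The start-site regions of both pumps and of Cacna1c are shown because Atp2b1 and Cacna1c had the smallest p among the higher and lower members and Atp2b4 is the more abundant pump. Each is 300 bases from RefSeq on GRCr8, 250 before and 50 after the annotated start, 5′ to 3′ on the strand of the gene, with GC boxes (GGGCGG on either strand) in capitals. They lie at chr7:35622211-35622510 on the plus strand for Atp2b1, at chr13:47758827-47759126 on the minus strand for Atp2b4 and at chr4:154051699-154051998 on the minus strand for Cacna1c.
Atp2b1: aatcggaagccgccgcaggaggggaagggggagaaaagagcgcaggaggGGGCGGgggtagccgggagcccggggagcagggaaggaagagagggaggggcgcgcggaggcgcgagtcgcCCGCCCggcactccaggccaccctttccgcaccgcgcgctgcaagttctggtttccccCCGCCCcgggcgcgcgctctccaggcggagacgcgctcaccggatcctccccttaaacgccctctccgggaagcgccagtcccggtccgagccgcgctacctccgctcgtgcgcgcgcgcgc
Atp2b4: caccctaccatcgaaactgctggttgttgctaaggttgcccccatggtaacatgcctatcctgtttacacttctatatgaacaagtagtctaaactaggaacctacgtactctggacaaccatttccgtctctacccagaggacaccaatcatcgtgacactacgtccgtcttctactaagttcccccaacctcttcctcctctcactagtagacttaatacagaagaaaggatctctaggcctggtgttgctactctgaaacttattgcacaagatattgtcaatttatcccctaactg
Cacna1c: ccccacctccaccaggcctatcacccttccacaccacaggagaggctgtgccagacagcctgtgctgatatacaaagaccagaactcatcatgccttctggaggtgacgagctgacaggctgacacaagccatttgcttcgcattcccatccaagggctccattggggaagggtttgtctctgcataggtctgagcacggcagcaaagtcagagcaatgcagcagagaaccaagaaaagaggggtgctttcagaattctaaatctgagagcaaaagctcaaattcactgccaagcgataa

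The Atp2b1 window was 74.3% G and C, held 42 CG dinucleotides and contained 3 GC boxes, a motif bound by the factor Sp1, whose first bases lay at -201, -130 and -72 from the start site. The windows of Atp2b4 (44.7% G and C, 6 CG) and Cacna1c (51.7%, 4 CG) contained none, and 34.9% of 27457 promoter windows of this length held at least 1. Windows of other tested members held GC boxes as well, among them Cacna2d1 with 7 and Atp2a2, Ryr2 and Cacnb3 with 3 each. Those of Slc8a1, Slc8a2 and Trpc4 were among the windows without any. The median window held 52.3% G and C and 7 CG. On either strand, none of the 3 windows held an E-box (CACGTG, in 6.65% of windows), a cAMP response element (TGACGTCA, 1.91%), a TATA box (TATAAA, 14.3%), a glucocorticoid receptor motif (AGAACA, 20.1%) or a CArG box, the motif of serum response factor (1.64%). The core of the NFAT motif, GGAAA, occurred in the windows of Atp2b1 and Atp2b4 but not of Cacna1c, and in 62.5% of all windows. Of the 37 tested members 31 had a window in the table. These matches describe letters, and no binding was measured.

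Atp2a2, the main store pump, stood at 169.7, 145 and 164 FPKM in exosome 1, 2 and 3, against 139, 170.5 and 152 FPKM in saline 1, 2 and 3. The exosome values lay within the range of the saline values, and the difference of 0.053 had an interval from -0.23 to 0.33. Atp2a3, a store pump of endothelium and blood cells, stood at 10.2, 18.0 and 9.80 FPKM in exosome 1, 2 and 3, against 10.9, 9.79 and 9.07 FPKM in saline 1, 2 and 3. Exosome 2 alone was high, and it was also the library with the highest endothelial marker sum, at 195 FPKM. The part of endothelial RNA in that value was not tested. Atp2c1, the calcium and manganese pump of the Golgi, stood at 18.4, 18.3 and 20.5 FPKM in exosome 1, 2 and 3, against 13.8, 16.5 and 16.3 FPKM in saline 1, 2 and 3, without overlap. A log2 difference of 0.28 ± 0.11 (SE) came with an unadjusted p of 0.0429 and an adjusted p of 0.307 in limma. With single libraries left out the difference lay between 0.20 and 0.32, and its unadjusted p in limma between 0.0462 and 0.129. In the RefSeq gene table Atp2c1 overlaps Aste1.

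**Figure D5:**
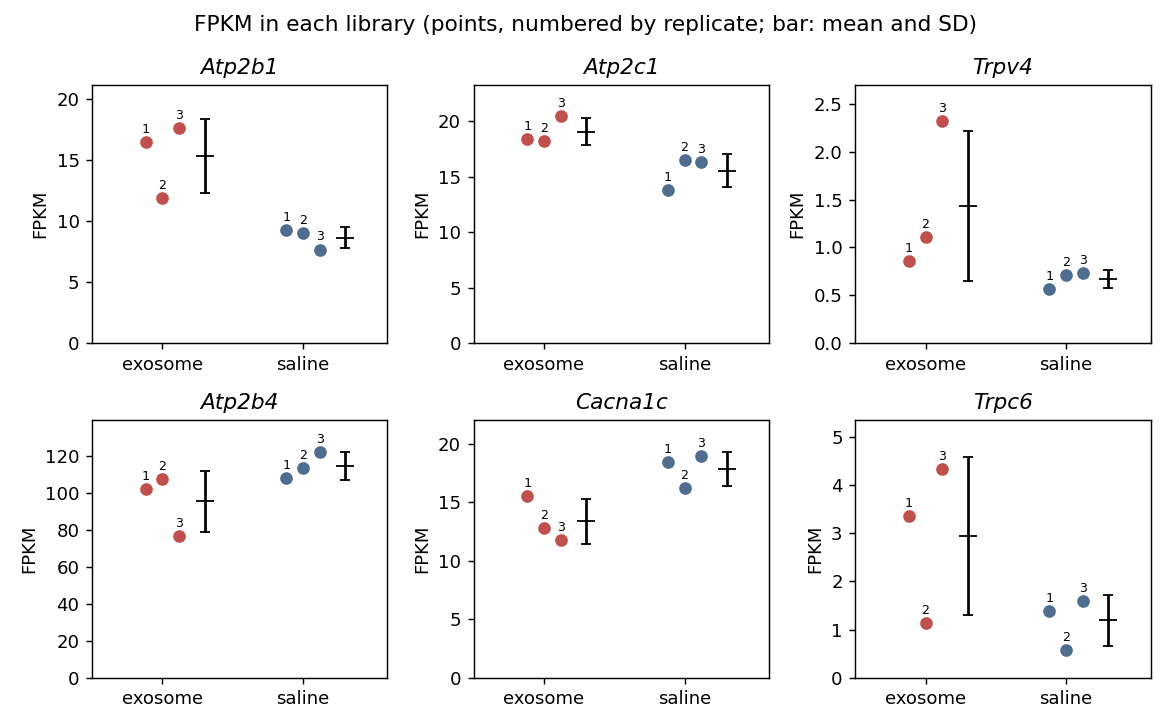
FPKM of 6 members in each library (points, numbered by replicate), with the mean and SD of each group (bars). Atp2b1, Atp2c1 and Trpv4 were higher and Atp2b4 and Cacna1c lower in all 3 exosome libraries than in any saline library, while exosome 2 lay among the saline values of Trpc6.

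Sodium-calcium exchangers remove calcium against the inward flow of sodium. Slc8a2 stood at 21.8, 28.1 and 15.2 FPKM in exosome 1, 2 and 3, against 24.1, 23.1 and 29.4 FPKM in saline 1, 2 and 3, with an adjusted p of 0.544. Exosome 3 was lowest, and exosome 2 lay above saline 1 and 2. Slc8a1, the exchanger of heart and smooth muscle, ranged from 8.82 to 11.04 FPKM with exosomes and from 9.55 to 13.3 FPKM with saline (adjusted p = 0.468). Slc8a2 exceeded Slc8a1 per length in all 6 libraries, by 1.72- to 2.55-fold in the exosome libraries and 1.92- to 2.52-fold in the saline libraries. That order rests on the lengths implied by the FPKM steps, 2999 bases for Slc8a2 and 13179 bases for Slc8a1. In reads Slc8a1 held more, at 4083 to 5972 per library against 2026 to 3002 for Slc8a2.

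The libraries differed in how often they gave the extreme value of a member. Exosome 3 was the highest or lowest library for 20 of the 37 tested members (54.1%), and for 50.4% of all genes tested. Exosome 2 was the extreme for 15 members (40.5%), against 29.7% of all genes. Saline 2 was the extreme for 7 members (18.9%), against 31.7% of all genes. Exosome 3 was thus the most frequent extreme among the members and among all genes.

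A second list of 85 calcium handling genes outside the rule held store proteins, the mitochondrial uniporter, other cation channels and calcium sensors. Of these 58 were tested and none passed the threshold in either direction, the smallest adjusted p being 0.255. At an unadjusted p under 0.05 limma gave 5 higher and 8 lower genes, 22.4% of the tested list against 16.0% of all genes, and the median log2 difference was -0.051. The groups did not overlap for 6 higher and 12 lower genes, 31.0% of the tested list against 21.1% of all genes. The uniporter of mitochondria showed opposite signs among its parts. Mcu, its pore, stood at 18.9, 16.7 and 20.005 FPKM in exosome 1, 2 and 3, against 14.1, 14.1 and 11.4 FPKM in saline 1, 2 and 3. Smdt1, a small subunit required for the pore to work, stood at 36.6, 39.6 and 34.6 FPKM with exosomes and 48.1, 46.3 and 46.5 FPKM with saline. Micu2, which gates the pore, stood at 10.6, 15.8 and 10.5 FPKM with exosomes and 17.1, 20.9 and 18.4 FPKM with saline. None of the 3 had overlapping groups, and their adjusted p in limma were 0.256, 0.256 and 0.261.

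Pkd2, which encodes the cation channel polycystin of cilia and the endoplasmic reticulum, stood at 256, 284 and 369 FPKM in exosome 1, 2 and 3, against 224, 186 and 159 FPKM in saline 1, 2 and 3. In each library that was more than any other channel gene described here, and the groups did not overlap (log2 difference 0.67 ± 0.18, SE, adjusted p = 0.255). Nfatc1, a transcription factor activated by calcineurin (log2 difference 0.62), Homer3, a scaffold protein (0.40), and Trdn, which anchors release channels (0.67), were the other genes above 0 at an unadjusted p under 0.05. Below 0 were Camk2g, a calmodulin-dependent kinase (-0.59), Tpcn1, a channel of lysosomes and endosomes (-0.52), Tmem110, the Stim1 regulator also named Stimate (-0.39), and Mrvi1, which links the inositol trisphosphate receptor to cGMP kinase (-0.38). Tmco1, a channel of the endoplasmic reticulum (-0.28), and Sri, the calcium-binding sorcin (-0.27), completed them.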

How the data were processed

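RNA from rat aorta was sequenced in 3 exosome and 3 saline libraries, made with the SMARTER mRNA-seq kit per the labels' protocols. The authors deposited FPKM values, 1 column per sample and 24005 gene symbols. DESeq2 1.28.1 stands in the submitters' processing notes without a role. For the aligner, the counter, the strand setting, the build and the annotation the entry is "not given in the sources used here". Reads of overlapping, antisense or paralogous genes therefore may not be separable. An overlapping gene was named only where the deposited table also lists it. Other members, Atp2b4 and Ryr2 among them, overlap RefSeq genes that it does not list.

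FPKM steps gave whole reads for all 18430 genes above 0 (100.0% within 0.02 reads), with library totals and gene lengths. Two-sided tests used limma 3.58.1 (R 4.3.3) on values of log2(FPKM + 1), with an intensity trend and no covariate, over the 11742 genes with a mean of at least 1 FPKM. Adjusted p are Benjamini-Hochberg values over those genes. Log2 differences on this scale understate the change of low genes. Separate animals are not stated for the libraries, and the p-values then cover only the spread between samples, which may be technical. An exact permutation test of 3 against 3 libraries cannot go below 0.10 and was not used.

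The members and lists were chosen with earlier results of these data known. Genes named with every library's value were tested members with non-overlapping groups or an unadjusted p under 0.05, and the highest member of each role. The other members given with values were chosen after those values were seen. Not every member below the filter is reported here by name. Of the second list, genes with an unadjusted p under 0.05 were named. Alternatives were pseudocounts of 0.1 and 0.01, other filters, rescaling, quantile normalization, other moderation, library weights, a replicate block, voom on recovered reads, each library left out and thresholds of 0.10 and 0.20. Leaving out exosome 1 and 3 together was added after seeing the data. Sequences are from RefSeq tables (GRCr8), matched by symbol, and Python 3.11.15 was used for the tables and plots.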

Additional observations from a re-analysis of the deposited data

How the results depend on the processing

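The number of members past the threshold stayed at 0 in every alternative except library weights, where 1 member passed, Atp2b1, as did 618 genes in all against 1 in the main test. Over all genes 2 passed with quantile normalization. With single libraries left out, 0 to 9 genes passed over all genes, and no member did, also with exosome 1 and 3 both left out. The thresholds of 0.10 and 0.20 added no member. The median log2 difference of the members was 0.024, and it was 0.079 with scaling by median ratios. It ranged from -0.028 to 0.049 with single libraries left out. The number of members at an unadjusted p under 0.05 ranged from 1 to 4 higher and from 0 to 3 lower over the settings, while that of all genes ranged from 694 to 3949. The 4 higher members occurred with library weights (3949 genes) and without exosome 2 (3211 genes).

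Of the 16 named members the sign turned for 5, none of them near the threshold. Cacnb2 gave 0.027 with scaling to the same sum, 0.059 with median ratios, 0.043 with quantile normalization and 0.080 with library weights, and it ranged from -0.097 to 0.061 with single libraries left out. Trpc4ap gave -0.046 with library weights and ranged from -0.035 to 0.085 with single libraries left out. Atp2a2 ranged from -0.017 to 0.13 in the same way. With exosome 1 and 3 both left out, Atp2a2 gave -0.083, Stim1 0.027 and Slc8a2 0.14, where exosome 2 is the lone treated library and is assumed to vary like the saline libraries. The cause of these turns was not tested.

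The replicate block left the count of members at 0 and the median at 0.024. Libraries sharing a number correlated at 0.068, 0.096 and -0.165 in their deviations from the group means. Not every library correlated best with its own number. The deviations of the 3 libraries of a group are tied to each other, so these correlations cannot decide whether the numbers pair the libraries. Depth limits the members below the filter, several of which held fewer than 10 reads per library.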
